A study of Mus musculus with 6 samples.

Results

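The immediate early genes described here are 10 genes chosen by symbol from the count table of 6 mouse tumors: Fos, Fosb, Jun, Junb, Egr1, Ier2, Ier3, Atf3, Dusp1 and Nr4a1. They are 10 of the 55536 genes counted, and all 10 were among the 15696 genes with enough counts to test. The tumors were grown under the skin of C57BL/6J mice from about 100000 injected B16 cells, a melanoma line of that strain, and total RNA of the whole tumor was sequenced on day 13. The 2 groups are 3 tumors of cells with a knockout of ATM, a kinase activated by breaks in both strands of DNA, and 3 tumors of cells that carry a vector control. The labels do not say how ATM was disrupted or if the cells were a clone or a pool or how many mice bore the tumors, and name no genotype for the host mice, whose cells both groups of tumors contain. The p-values therefore rest on the variation among these 6 tumors alone, and the effect of ATM loss cannot be told apart from other differences between the injected cell populations.

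Immediate early genes are the genes that cells switch on within minutes of a stimulus, without first making new protein. Growth factor signals that run through the ERK kinases, stress signals that run through JNK and p38, and calcium or cyclic AMP signals act on transcription factors that already sit at these promoters, among them SRF with its partners and CREB. The transcripts are short-lived, so their level in a tissue follows what its cells met shortly before the RNA was fixed, handling of the tissue included. In melanoma cells the ERK pathway is a main input to them. Fos, Fosb, Jun and Junb encode subunits of AP-1, a dimeric transcription factor. Atf3 encodes a stress-induced factor that can pair with Jun proteins, Egr1 a zinc finger factor and Nr4a1 an orphan nuclear receptor. Dusp1 encodes a phosphatase that switches MAP kinases off, Ier3 a regulator of cell survival, and Ier2 a small nuclear protein.

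Promoter sequence was at hand for 8 of the 10 genes, as the 300 bases from 250 before to 50 after the RefSeq start on GRCm38.p6. Egr1 and Ier2 had no window, so the counts of letters below do not cover them. The letters TGACG, the core letters to which CREB and ATF factors bind, were found on either strand in 6 of the 8 windows, those of Fos, Fosb, Junb, Atf3, Dusp1 and Nr4a1, and in 20.8% of the 32851 windows of the whole table. The whole palindrome TGACGTCA, which contains TGACG on both strands, was found in the window of Dusp1 and in 1.79% of all windows. GGGCGG, the GC box, was in 7 of 8 windows (35.7% of all) and TATAAA in 2 of 8, those of Fos and Junb (13.6%). The AP-1 letters TGANTCA (7.81% of all windows) and the CArG box of SRF (1.63%) were in none of the 8, which says only that they are not within these bases. The 250 bases before the start of 4 of the genes that hold these letters are shown, because each of these genes had its lowest level in ATM knockout tumor 1 or 2, as described further on. Capitals mark TGACG or its reverse complement.
Fos, chr12:85473640-85473889, plus strand: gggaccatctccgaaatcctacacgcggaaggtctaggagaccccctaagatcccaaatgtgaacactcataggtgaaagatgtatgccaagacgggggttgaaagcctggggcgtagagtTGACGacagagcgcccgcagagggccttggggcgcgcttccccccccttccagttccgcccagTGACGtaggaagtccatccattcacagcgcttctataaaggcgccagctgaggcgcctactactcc
Junb, chr8:84978749-84978998, minus strand: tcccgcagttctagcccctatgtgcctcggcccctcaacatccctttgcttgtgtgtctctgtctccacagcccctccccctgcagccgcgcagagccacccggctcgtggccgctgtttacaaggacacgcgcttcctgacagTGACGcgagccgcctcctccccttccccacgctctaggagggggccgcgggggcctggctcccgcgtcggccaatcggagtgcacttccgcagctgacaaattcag
Atf3, chr1:191183334-191183583, minus strand: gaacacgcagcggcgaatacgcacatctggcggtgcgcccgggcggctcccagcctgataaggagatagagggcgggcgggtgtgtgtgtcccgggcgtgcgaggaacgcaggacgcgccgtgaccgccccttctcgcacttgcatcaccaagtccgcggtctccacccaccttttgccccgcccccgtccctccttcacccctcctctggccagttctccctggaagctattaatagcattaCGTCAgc
Dusp1, chr17:26508473-26508722, minus strand: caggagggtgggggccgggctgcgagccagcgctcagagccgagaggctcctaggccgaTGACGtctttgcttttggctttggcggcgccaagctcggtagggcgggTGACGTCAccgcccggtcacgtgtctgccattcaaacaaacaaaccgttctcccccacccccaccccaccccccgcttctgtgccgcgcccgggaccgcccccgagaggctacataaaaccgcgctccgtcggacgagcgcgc
The windows of Jun and Ier3, which were lowest in the same tumors, hold no TGACG, and those of Fosb and Nr4a1, which were lowest in a control tumor, hold it.

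Most of the genes have few exons, but not all of them are short. In the GENCODE M21 annotation the main coding transcript of Jun, Junb and Ier2 has 1 exon, as in 2.26% of the tested coding genes, and 9 of the 10 have at most 4 exons, as in 20.6%. Nr4a1 has 8 exons. The genes span from 1240 bases (Ier3) to 56539 bases (Dusp1), and the median span of the tested genes was 20211 bases. Dusp1, Atf3 (47744 bases) and Nr4a1 (20527 bases) lie above that median. AU-rich elements in the 3' untranslated region, which mark many early transcripts for rapid decay, were counted as ATTTA. At least 3 copies were found in 6 of the 10 genes and in 34.4% of 13284 tested coding genes. The median was 3.68 copies per kb among the 10 genes and 1.20 per kb among the tested genes, while Ier2 had none in 755 bases. The longer element TTATTTATT was found in Fos and in Dusp1, and in 7.17% of the tested coding genes. The sites are shown in capitals with the bases around them.
Fos, base 655 of the 3' untranslated region: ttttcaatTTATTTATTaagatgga
Dusp1, base 103: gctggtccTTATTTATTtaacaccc
Dusp1, base 392: ttttacctTTATTTATTtttgtgta

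The libraries held between 22101124 and 29037715 counts on genes. Atm itself does not check the genotype labels, since its counts cover the whole gene and the place of the disruption is not known: its level differed by 0.10 ± 0.13 on the log2 scale (SE, edgeR adjusted p = 0.707). The melanocytic markers Mlana, Tyr, Pmel, Dct, Tyrp1, Sox10 and Mitf summed to between 18811 and 27174 CPM (gene counts scaled to the depth of the library) in the control tumors and between 18822 and 19058 CPM in the knockout tumors, and 1 of the 7, Dct, fell (-0.75 on the log2 scale, edgeR adjusted p = 0.0434). Markers of host tissue varied widely between tumors, skeletal muscle markers from 26.4 to 7455 summed CPM, with both values in the control group. T cell markers summed to between 41.9 and 59.4 CPM in the control tumors and between 59.6 and 117 CPM in the knockout tumors. None of 9 passed, and 5 were higher at an unadjusted edgeR p below 0.05, which 23.0% of all tested genes had in either direction. Endothelial markers summed to between 539 and 699 CPM and between 485 and 522 CPM, and none of 9 passed (unadjusted edgeR p below 0.05 in 4, of which 3 were lower). The part of these cells in the levels of the immediate early genes was not tested. Of 8 keratinocyte markers 4 (Krt5, Krt14, Krt1 and Lor) had no count in any library.

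Of the 10 immediate early genes 1 passed the test between the groups, Ier2, which was lower in the ATM knockout tumors. The other 9 did not pass, and none rose. Over all 15696 tested genes, 4.96% passed at an adjusted p below 0.05 (edgeR quasi-likelihood test), 2.75% as lower and 2.21% as higher. DESeq2, which called 7.33% of the tested genes as lower, and limma-voom also called Ier2 alone. At an unadjusted edgeR p below 0.05, Ier2 was again the only one of the 10, against 23.0% of all tested genes. The median log2 fold change of the 10 genes, knockout minus control, was -0.13, with 7 below 0, and the median of all tested genes was -0.01. Fewer cells that express a gene and less RNA per cell cannot be told apart in whole tumors.

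**Figure D1:**
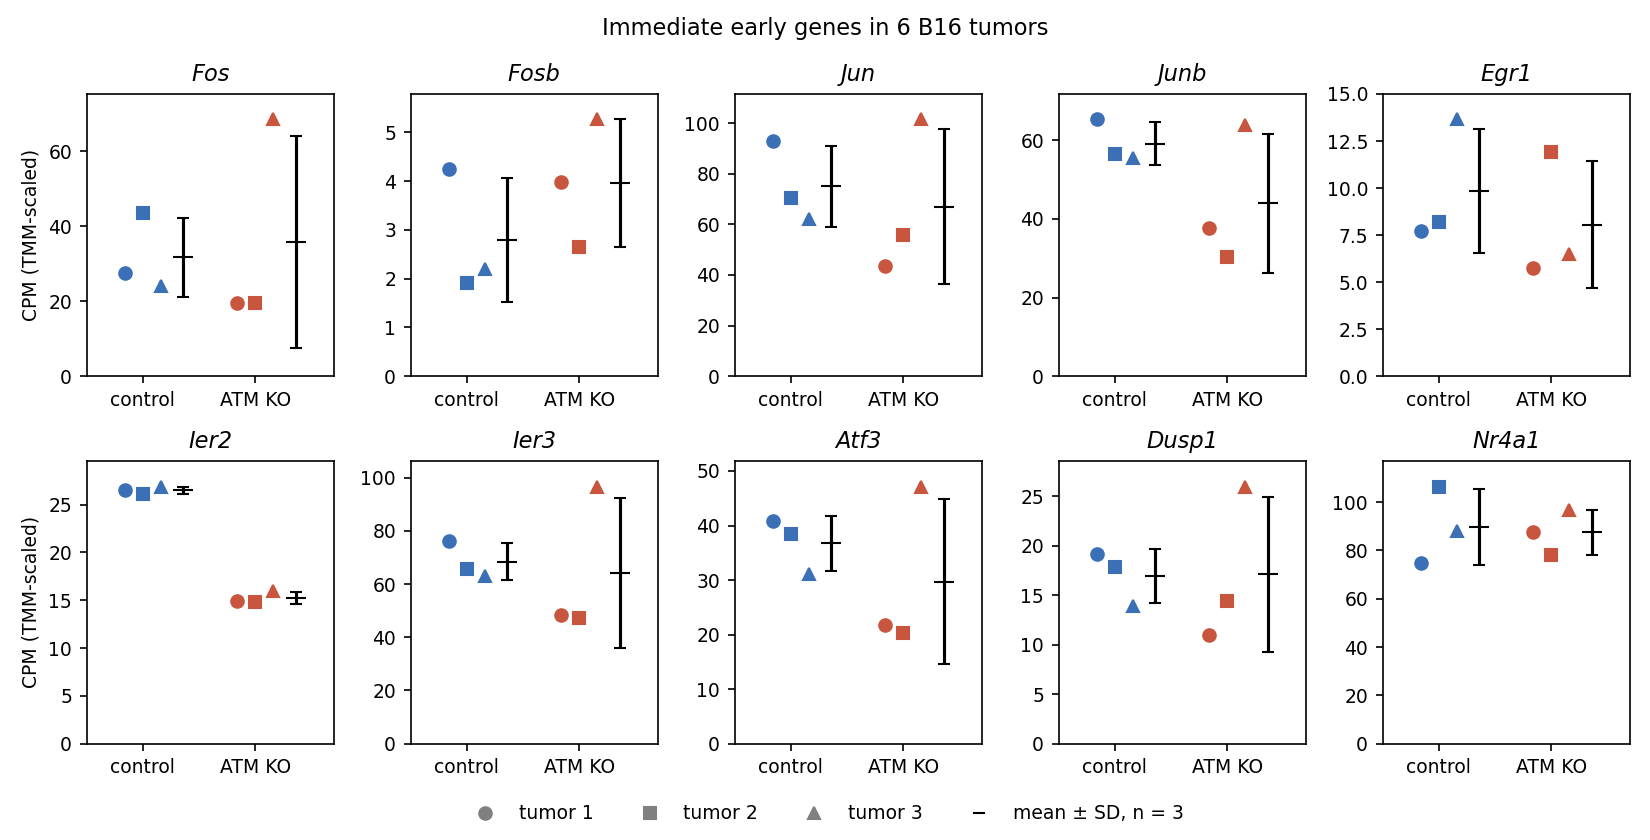
Level of each of the 10 immediate early genes in TMM-scaled CPM (vertical axes, each from 0) in 3 vector control tumors (blue) and 3 ATM knockout tumors (red), with the mean and SD of each group beside the points and the tumor number given by the symbol. The Ier2 groups lie apart with little spread, while for Fos, Jun, Ier3 and Atf3 ATM knockout tumor 3 lies above and the other 2 knockout tumors lie below every control.

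Ier2 (chromosome 8, 84661331 to 84662852, GRCm38) was the member with the least spread. It was read at 26.5, 26.1 and 26.9 CPM in vector control tumors 1, 2 and 3 and at 14.9, 14.8 and 15.9 CPM in ATM knockout tumors 1, 2 and 3. The groups did not overlap, and the SD of log2 CPM within each was 0.02 and 0.06. The means were 26.5 ± 0.378 and 15.2 ± 0.622 CPM (SD, n = 3), and the fitted log2 difference was -0.80 ± 0.08 (SE), with a 95% interval from -0.99 to -0.61 and an edgeR adjusted p of 0.010. Ier2 was the only one of the 10 whose groups did not overlap. Over all tested genes the groups did not overlap in 29.7%, and in 15.4% with the knockout tumors lower. Ier2 no longer passed when control tumor 2 (adjusted p = 0.0692), knockout tumor 1 (0.0872) or knockout tumor 2 (0.0683) was left out of the edgeR fit, with a fold change between -0.79 and -0.78 in each of these fits.

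Negative fold changes prevailed among the tested genes of chromosome 8, where Ier2 and Junb lie. The median log2 fold change of its 825 other tested genes was -0.26, while the chromosomes of the other 8 immediate early genes had medians between 0.01 and 0.10. Of 88 tested genes between 80 and 90 Mb, Ier2 and Junb included, 20 passed as lower and none as higher (edgeR). Over all tested genes 2.75% passed as lower and 2.21% as higher. At an unadjusted p below 0.05 the numbers were 42 lower and 1 higher, against 23.0% of all tested genes in either direction. The median log2 fold change of the other 87 was -0.29, and 73 of them lay below 0. Ier2 had the fifth lowest fold change of the 88. Its nearest tested neighbors were Nacc1, a transcriptional repressor gene (log2 fold change -0.50, adjusted p = 0.0253), and Trmt1, which encodes a tRNA methyltransferase (-0.47, adjusted p = 0.0296). Calr, the gene of the chaperone calreticulin, lies further off and did not pass (-0.09, adjusted p = 0.665). Junb lies 315866 bases from Ier2 and ranked 24th lowest in the same stretch. The part of the shift of chromosome 8 in the Ier2 and Junb values was not tested.

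**Figure D2:**
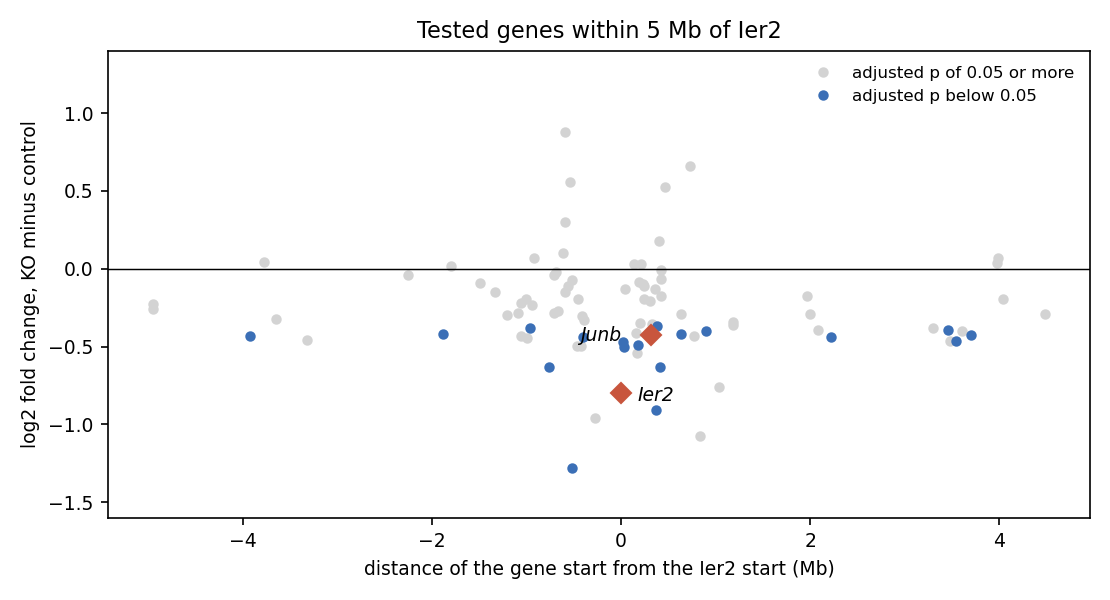
Log2 fold change, ATM knockout minus vector control (vertical axis), of 90 tested genes that start within 5 Mb of Ier2, against the distance of their start from the Ier2 start in Mb (horizontal axis); blue points have an adjusted p below 0.05 and the red diamonds are Ier2 and Junb. 76 of the 90 genes lie below 0, and the 20 that passed are all lower.

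The AP-1 subunit genes Fos, Jun and Junb differed more within the knockout group than between the groups. Fos, the partner of Jun in the classical AP-1 dimer, was read at 27.4, 43.6 and 24.0 CPM in the control tumors and at 19.4, 19.6 and 68.6 CPM in the knockout tumors. ATM knockout tumor 3 was the highest of the 6 and knockout tumors 1 and 2 were the 2 lowest, so the groups overlapped. The group means were 31.7 ± 10.5 and 35.8 ± 28.3 CPM (SD, n = 3; log2 fold change 0.18, 95% interval -1.26 to 1.62, edgeR adjusted p = 0.905). Without ATM knockout tumor 3 the fold change of Fos was -0.69 (adjusted p = 0.234).

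Jun followed the same order at its ends. It was read at 92.9, 70.4 and 61.9 CPM in the control tumors and at 43.5, 55.7 and 102 CPM in the knockout tumors. Knockout tumor 3 was again the highest, and knockout tumors 1 and 2 lay below all 3 controls. The fold change was -0.16 ± 0.34 (SE; edgeR adjusted p = 0.842), and -0.59 without ATM knockout tumor 3 (adjusted p = 0.193). Jun shares 232 exon bases with the antisense RNA gene Junos, which had 175 counts over the 6 libraries. It is not given whether the counting used strand.

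Junb, which encodes a Jun protein that can oppose Jun, was read at 65.4, 56.6 and 55.6 CPM in the control tumors and at 37.7, 30.3 and 64.0 CPM in the knockout tumors. Knockout tumors 1 and 2 lay below every control tumor, while knockout tumor 3 lay between control tumors 1 and 2. The fold change was -0.43 ± 0.28 (SE; edgeR adjusted p = 0.430) and became -0.79 without ATM knockout tumor 3 (adjusted p = 0.067). Junb shares 173 exon bases with Prdx2 on the other strand, so part of its reads may not have been assigned.

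Fosb was the rarest of the 10, with 42 to 154 counts per library. It was read at 4.25, 1.92 and 2.19 CPM in the control tumors and at 3.98, 2.65 and 5.27 CPM in the knockout tumors. Knockout tumor 3 was the highest and control tumor 2 the lowest, and the groups overlapped (log2 fold change 0.51, 95% interval -0.44 to 1.46, edgeR adjusted p = 0.514). Without control tumor 1 the fold change of Fosb was 0.95 (adjusted p = 0.134).

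The stress and survival genes Atf3 and Ier3 were highest in the same tumor as Jun. Atf3 was read at 40.8, 38.4 and 31.1 CPM in the control tumors and at 21.7, 20.3 and 47.1 CPM in the knockout tumors. Ier3 was read at 76.2, 65.8 and 63.0 CPM in the control tumors and at 48.6, 47.4 and 96.6 CPM in the knockout tumors. In both genes knockout tumor 3 lay above and knockout tumors 1 and 2 below every control tumor. The fold changes were -0.31 ± 0.35 for Atf3 (SE; edgeR adjusted p = 0.677) and -0.09 ± 0.30 for Ier3 (adjusted p = 0.907). Without ATM knockout tumor 3 they were -0.80 (adjusted p = 0.068) and -0.50 (adjusted p = 0.075).

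Dusp1, the MAP kinase phosphatase, was read at 19.2, 17.8 and 13.9 CPM in the control tumors and at 10.99, 14.4 and 26.0 CPM in the knockout tumors. Knockout tumor 3 was the highest and knockout tumor 1 the lowest, with knockout tumor 2 inside the control range. Its means were nearly equal, 16.96 ± 2.73 and 17.1 ± 7.85 CPM (SD, n = 3; log2 fold change 0.02, 95% interval -0.79 to 0.82, edgeR adjusted p = 0.988). The sign of that difference turned without ATM knockout tumor 3 (-0.41).

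Egr1 and Nr4a1 did not follow this order. Egr1, on chromosome 18, was read at 7.70, 8.18 and 13.7 CPM in the control tumors and at 5.74, 11.9 and 6.50 CPM in the knockout tumors. Its highest tumor was control tumor 3 and ATM knockout tumor 3 was the lowest but one (log2 fold change -0.29, 95% interval -1.15 to 0.57, edgeR adjusted p = 0.702). Nr4a1 was read at 74.7, 106 and 88.0 CPM in the control tumors and at 87.7, 77.9 and 96.8 CPM in the knockout tumors. Both groups covered much the same range, with control tumors at each end (log2 fold change -0.04, 95% interval -0.38 to 0.31, edgeR adjusted p = 0.924).

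**Figure D3:**
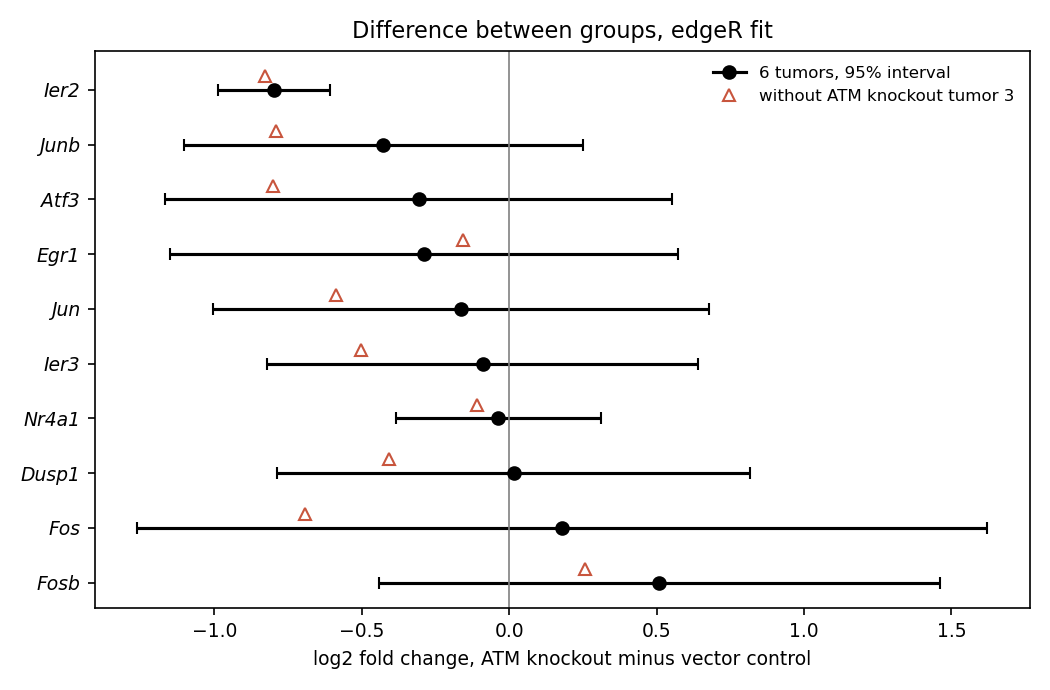
Log2 fold change of each gene, ATM knockout minus vector control (horizontal axis), from the edgeR fit of all 6 tumors (black points, bars are 95% intervals) and from the fit without ATM knockout tumor 3 (open triangles). The interval of Ier2 alone lies off 0, and 9 of the 10 values without knockout tumor 3 are below 0, Fosb being the exception.

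Counted over the 10 genes, ATM knockout tumor 3 was the highest of the 6 tumors for 6 (Fos, Fosb, Jun, Ier3, Atf3 and Dusp1), as it was for 14.1% of all tested genes. ATM knockout tumors 1 and 2 were each the lowest tumor for 4 of the 10, as they were for 15.7% and 12.4% of the tested genes. Knockout tumor 3 lay above every control for 6 of the 10 and for 27.3% of the tested genes. Knockout tumors 1 and 2 both lay below every control for 6 of the 10 (Fos, Jun, Junb, Ier2, Ier3 and Atf3) and for 22.0% of the tested genes. Knockout tumor 3 above every control and knockout tumors 1 and 2 below every control held together for Fos, Jun, Ier3 and Atf3. The same held for 1.32% of the tested genes. Without ATM knockout tumor 3 in the edgeR fit, Ier2 was the 1 gene of the 10 that passed (adjusted p = 0.0419), where 1.22% of all tested genes passed and 0.616% as lower. The median fold change of the 10 genes was then -0.55. The order of the tumors was described after the values were seen and has no test. The SD of log2 CPM within the knockout group was 1.05 for Fos, which 2.14% of all tested genes exceeded, and between 0.49 and 0.67 for Fosb, Jun, Junb, Egr1, Ier3, Atf3 and Dusp1. It was 0.06 for Ier2 and 0.16 for Nr4a1. In the control group the SD ranged from 0.02 for Ier2 to 0.60 for Fosb. The 10 genes summed to 435, 435 and 380 CPM in control tumors 1, 2 and 3 and to 294, 295 and 528 CPM in knockout tumors 1, 2 and 3.

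**Figure D4:**
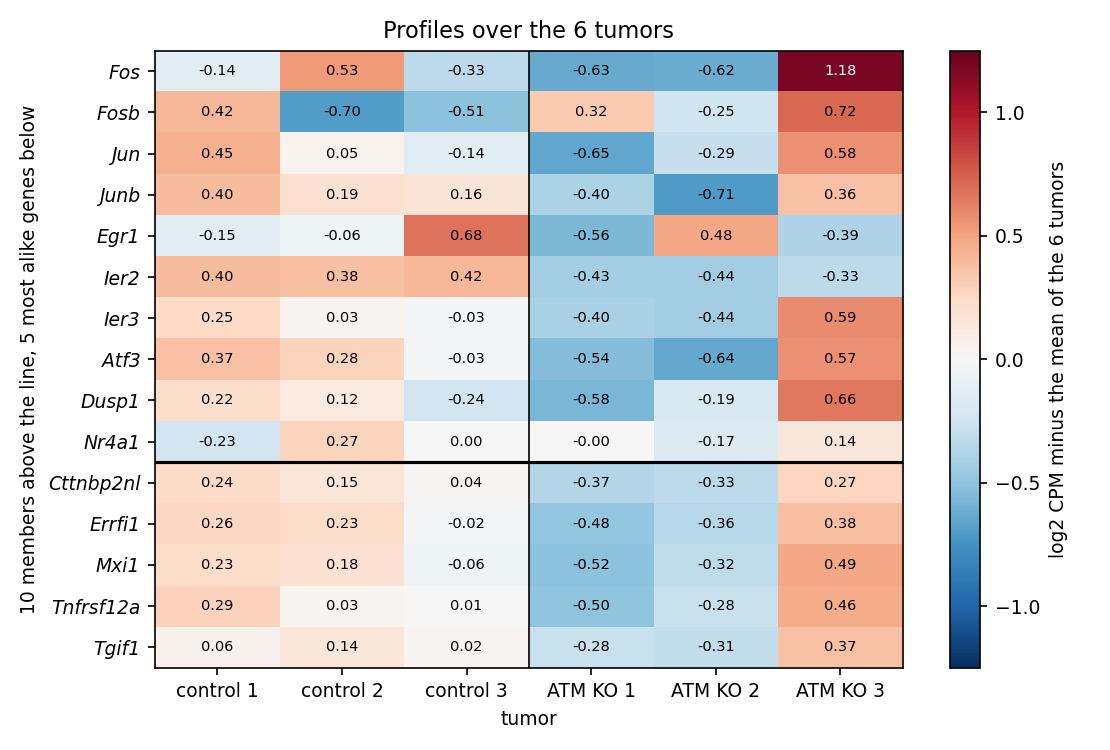
Log2 CPM minus the mean of the 6 tumors (color and printed value) for the 10 immediate early genes above the line and the 5 genes most like their mean profile below it, with 1 column per tumor. Most rows are blue in ATM knockout tumors 1 and 2 and red in ATM knockout tumor 3, while Ier2 is blue in all 3 knockout tumors.

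The genes most like the mean profile of the 10 were ranked by the root mean square difference of centered log2 CPM over the 6 tumors, among 11896 other coding genes whose mean reached 2 CPM. They were Cttnbp2nl (0.0647), Errfi1 (0.0689), Mxi1 (0.0723), Tnfrsf12a (0.0747) and Tgif1 (0.0762), where a gene with no change between tumors would have 0.281. Errfi1 encodes a feedback inhibitor of the EGF receptor and Tnfrsf12a the receptor of TWEAK. Errfi1 was read at 34.7, 34.1 and 28.6 CPM in the control tumors and at 20.8, 22.6 and 37.8 CPM in the knockout tumors. None of the 5 passed the test between groups, with edgeR adjusted p-values from 0.468 to 0.80.

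Some genes of other lists had a like order of tumors. By mean log2 CPM so did the list of early NF-kB targets. Its controls 1 to 3 had 2.81, 2.88 and 2.92, and its knockouts 1 to 3 had 2.52, 2.19 and 3.09. The heat shock list had the order in part (5.71, 5.17 and 5.65, then 5.13, 5.20 and 5.81), with knockout tumor 2 above control tumor 2. The macrophage and erythroid means were highest in control tumor 3 (6.86 and 6.51). In summed CPM the NF-kB list was highest in control tumor 3 (217) and the heat shock list in control tumor 1 (1662). The heat shock genes Hspa1a and Hspa1b, which tissue handling can induce, had their highest values in ATM knockout tumor 3, and Hspa1b nearly the same value in control tumor 1. Hspa1b was read at 27.8, 6.95 and 6.33 CPM in the control tumors and at 3.16, 2.76 and 27.8 CPM in the knockout tumors. Hspa1a was read at 5.22, 1.92 and 3.64 CPM and at 0.943, 1.15 and 7.66 CPM. The 2 genes are near copies of each other, and how reads were divided among them is uncertain. Of all 10 heat shock genes none passed in edgeR, DESeq2 or limma-voom (1 lower at an unadjusted edgeR p below 0.05). Of the 10, 3 had their highest level in ATM knockout tumor 3, as did 14.1% of all tested genes. Cd14, 1 of 9 macrophage markers, was at 18.0, 14.1 and 16.1 CPM in control and at 5.003, 4.94 and 20.7 CPM in knockout tumors. The other 8 macrophage markers were all lowest in control tumor 1, such as C1qa, a complement gene, at 77.8, 168 and 191 CPM in control and at 185, 158 and 199.6 CPM in knockout tumors. Of the 9 macrophage markers 4 (Cd14, C1qa, C1qb and C1qc) were highest in ATM knockout tumor 3, as were 14.1% of all tested genes. The macrophage markers together summed to between 468 and 1277 CPM in the control group and between 845 and 1138 CPM in the knockout group. Erythroid markers summed to 20.1, 8.91 and 454 CPM in knockout tumors 1, 2 and 3 and to between 61.9 and 734 CPM in the control group, and none of them was highest in ATM knockout tumor 3. The part of handling, of myeloid cells and of blood in the levels of the immediate early genes was not tested.

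The rest of the early response was described with 6 lists. Of 87 tested genes in 6 lists around the 10 members none rose and 2 fell in edgeR (at an unadjusted p below 0.05 there were 2 higher and 14 lower), where 4.96% of all tested genes passed and 23.0% had an unadjusted p below 0.05. The 87 genes had a median log2 fold change of -0.16, and 19 of them were highest in ATM knockout tumor 3, as were 14.1% of all tested genes. Of 13 other genes of the AP-1 and Maf families 1 fell, Maf, a large Maf factor of macrophages and T cells among others. It was read at 122.8, 125 and 176 CPM in the control tumors and at 72.3, 75.9 and 87.3 CPM in the knockout tumors, a log2 difference of -0.85 ± 0.16 (SE; edgeR adjusted p = 0.0414). Jund, the Jun paralog with the steadiest expression in most cells, did not pass, although its groups did not overlap: 59.1, 44.9 and 39.7 CPM in control tumors against 31.9, 26.5 and 36.6 CPM (edgeR adjusted p = 0.121). Groups that did not overlap, with the knockout tumors lower, were found for 15.4% of all tested genes. The part of the shift of chromosome 8 in the values of these lists, Maf and Jund included, was not tested. Fosl2, which encodes the Fos relative FRA2, was at 89.1, 91.6 and 74.1 CPM and at 39.3, 47.0 and 99.9 CPM, the same order of tumors as Jun at both ends. Without ATM knockout tumor 3, Fosl2 passed as the 1 called gene of these 6 lists, and Maf and Tsc22d1 did not pass.

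Of 29 other rapidly induced genes 1 fell, Tsc22d1, a leucine zipper gene induced by TGF-beta, from 83.3 ± 4.91 to 59.0 ± 5.69 CPM (SD, n = 3; log2 fold change -0.50 ± 0.09, edgeR adjusted p = 0.0384). The median of this list was -0.19, and 9 of its genes were highest in ATM knockout tumor 3. Ccn1, a matrix protein gene induced by SRF and YAP signaling, was at 50.7, 31.2 and 28.5 CPM in control and at 13.2, 20.2 and 70.6 CPM in knockout tumors. Ptgs2, the inducible cyclooxygenase gene, was at 8.85, 7.68 and 3.77 CPM and at 3.20, 2.40 and 12.1 CPM. Both had knockout tumor 3 as the highest and knockout tumors 1 and 2 as the 2 lowest. Of 10 other EGR, NR4A and KLF genes none passed in edgeR or limma-voom, with a median of -0.09 and 1 gene, Nr4a3, called higher by DESeq2. Nr4a3, a relative of Nr4a1, was at 377 ± 31.3 and 442 ± 15.7 CPM (SD, n = 3; edgeR adjusted p = 0.168). Its groups did not overlap and it was higher in the knockout tumors, which held for 14.3% of all tested genes.

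ERK feedback genes are induced by the pathway they restrain. Their list, which also holds ETS factor genes such as Etv1 and Etv5, had the lowest median of these 6 lists, -0.30. In it 10 of 13 genes were below 0 and none passed in edgeR or limma-voom. Spry2, a Sprouty inhibitor of receptor signaling, was at 41.8, 39.4 and 29.4 CPM in control and at 14.0, 17.5 and 25.7 CPM in knockout tumors, a fitted difference of -0.95 ± 0.25 (SE; edgeR adjusted p = 0.0888). Spry1 (-0.91, edgeR adjusted p = 0.108) and Etv1, an ETS factor gene (-0.59, adjusted p = 0.0543), were lower in every knockout tumor than in any control tumor. The same held for Spry2 and Spry4, so for 4 of the 13, and for 15.4% of all tested genes. Just 1 of the 13 was higher in every knockout tumor than in any control tumor, against 14.3% of all tested genes. Dusp2, another MAP kinase phosphatase gene, had a positive fold change, at 12.1, 12.4 and 11.9 CPM in control and at 17.3, 18.3 and 15.1 CPM in knockout tumors (0.48, adjusted p = 0.0588). DESeq2 called 5 genes of this list lower (Spry1, Spry2, Spry4, Etv1 and Etv5) and Dusp2 higher, in a fit that called 13.2% of all tested genes. At an unadjusted p below 0.05 in edgeR, 6 of the list were lower and 1 higher. Over all tested genes 23.0% had such a p in either direction.

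Signaling genes upstream of these promoters had fold changes of both signs. Of 17 MAP kinase pathway genes and of 10 genes of SRF, its partners and related factors none passed in edgeR or limma-voom, with medians of 0.06 and 0.03. Unadjusted edgeR p-values lay below 0.05 for 5 of the former, 3 higher and 2 lower, and for 1 of the latter, lower. Over all tested genes the share was 23.0%. Genes that DESeq2 called included Rps6ka3 as higher and Mapk8 and Creb1 as lower. Mapk8, which encodes JNK1, was at 47.8 ± 4.68 and 35.9 ± 4.34 CPM (SD, n = 3; adjusted p = 0.10). Creb1 was at 98.1 ± 5.54 and 82.5 ± 4.63 CPM (adjusted p = 0.112). Of 12 early NF-kB targets none passed in edgeR or limma-voom, with a median of -0.25, 2 lower at an unadjusted p below 0.05 and 1, Il1b, called lower by DESeq2. Tnfaip3, an inhibitor of the pathway, was at 24.8 ± 2.46 and 16.1 ± 5.12 CPM (adjusted p = 0.178). Of the 11 cytoskeletal SRF targets tested none passed in edgeR, DESeq2 or limma-voom, and none had an unadjusted edgeR p below 0.05 (median -0.11). All 8 stress genes around Atf4 had a negative fold change (median -0.52) and none passed in edgeR or limma-voom, with 3 at an unadjusted edgeR p below 0.05 and Asns called lower by DESeq2. Asns, asparagine synthetase, was at 212 ± 53.6 and 123 ± 9.27 CPM (adjusted p = 0.0654).

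Levels were also compared per length, as CPM per kb of annotated exon. Ier3 stood highest, at 60.4 ± 6.17 CPM per kb in the control tumors (SD, n = 3), above the next gene in every control tumor. Junb (25.7 ± 2.34), Nr4a1 (25.6 ± 4.53) and Jun (23.5 ± 5.02) followed, and their control values overlapped. Ier2 (17.4 ± 0.249), Atf3 (17.1 ± 2.35) and Fos (13.5 ± 4.45 CPM per kb) formed the next overlapping run. Dusp1 (5.12 ± 0.824), Egr1 (2.20 ± 0.738) and Fosb (0.446 ± 0.204 CPM per kb) came last, each below the gene before it in all control tumors. In the knockout tumors the mean of Ier2 was 10.01 ± 0.408 CPM per kb (SD, n = 3), below those of Fos and Atf3, although Ier2 stood above Fos in knockout tumors 1 and 2 and above Atf3 in knockout tumor 2. Of the 10 genes 7 lay above the median of all tested genes, 5.20 CPM per kb.

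**Figure D5:**
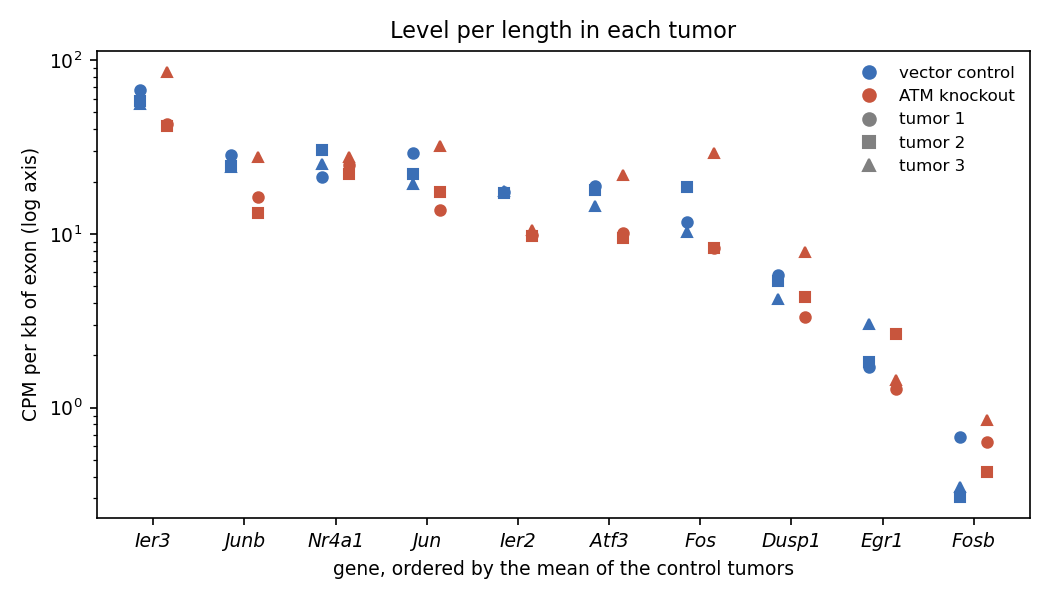
CPM per kb of exon on a log axis for each gene, ordered by the mean of the control tumors, in vector control (blue) and ATM knockout tumors (red), with the tumor number given by the symbol. Ier3 is the highest in all 6 tumors, and Fosb, between 0.308 and 0.844 CPM per kb, the lowest.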

How the data were processed

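Total RNA of 3 vector control and 3 ATM knockout tumors was sequenced, 1 library per tumor. The unit of the deposited files is the raw count of each gene, per the file values. Per the submitters' processing notes, the tools were STAR, HTSeq, SAMtools, cutadapt and Trim Galore (no version or step is given for any of them), with mm10, or GRCm38, as the genome build. Whether counting used strand is not known. All 55536 gene identifiers matched GENCODE M21. Rows naming no gene were left out. Among them were reads assigned to no annotated feature (16.7% to 18.2% of each file) and ambiguous reads (1.21% to 1.38%).

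Genes were filtered with filterByExpr (minimum count 10, total 15), scaled by TMM and tested with the quasi-likelihood F test of edgeR 4.0.16 (robust dispersions, no covariate). P-values were adjusted by the Benjamini-Hochberg method across 15696 genes, with a threshold of 0.05. On simulated counts for this comparison (15797 genes tested, 200 changed), the test recovered 26% of 2-fold and 97% of 4-fold changes. The simulation gave every gene the same biological coefficient of variation, 27.6%, and changed only genes above a count floor. These shares therefore do not apply to genes that vary more between tumors, such as Fos. Levels are TMM-scaled CPM, and log2 CPM uses a prior count of 2. Lengths are the union of annotated exons. Tumors of a group differed by more than sampling noise (a chi-square of 19.1 to 72.3 for each degree of freedom). The alternatives were other scalings, filters and dispersions, DESeq2 1.42.0, limma-voom (limma 3.58.1), a replicate block, protein-coding genes only, other thresholds, and each tumor left out.

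The 10 genes and the lists around them were chosen with earlier results of these data known. All 10 are named. Of the other lists, the rule allowed called genes (at most 6 a list) and the 4 with the smallest p, and the 5 genes most like the mean profile. Others were named after their values were seen: Fosl2, Ccn1, Ptgs2, Hspa1a, Hspa1b, Cd14, C1qa, C1qb and C1qc. So were the neighbors of Ier2 and genes that DESeq2 alone called.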

Additional observations from a re-analysis of the deposited data

How the results depend on the processing

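Ier2 kept its direction in all 16 fits (log2 fold change -0.83 to -0.75), and lost its call in 4, without 1 of 3 tumors, as given above, or with a replicate block (adjusted p = 0.106). Over the fits that leave out 1 tumor, the immediate early genes called ranged from 0 to 1, all genes called from 2 to 1209, and calls in the 6 wider lists from 0 to 4. The median fold change of the 10 genes ranged from -0.55 (without ATM knockout tumor 3) to 0.013. The fold change ranged from -0.69 to 0.51 for Fos, from 0.26 to 0.95 for Fosb, from -0.41 to 0.25 for Dusp1, from -0.59 to 0.066 for Jun, from -0.69 to 0.034 for Egr1, from -0.50 to 0.085 for Ier3 and from -0.15 to 0.13 for Nr4a1. Signs also turned for Nr4a1 with library size alone (0.0094), for Fos (-0.016) and Dusp1 (-0.037) in limma-voom, and for Fos (-0.072) and Dusp1 (-0.072) with the block. DESeq2 called 2070 genes (920 higher, 1150 lower), 13 of them in the wider lists. Library size alone gave 504 higher and 356 lower, against 347 and 431. At an adjusted p below 0.10 there were 1699 calls, 5 in the wider lists, and below 0.01 there were 48, with 0 in the wider lists and 0 of the immediate early genes. The cause of these differences was not tested.

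With the replicate number as a block, edgeR called 0 of all genes, 0 of the wider lists and 0 of the immediate early genes, where the fit without it called 778, 2 and 1. At an unadjusted p below 0.05 the block left 3004, 13 and 1. The labels do not say if the numbers pair the tumors. Same-numbered tumors correlated at 0.04, -0.27 and -0.42 in their deviations from the group means, and other pairs at -0.23 to 0.44. Deviations within a group of 3 depend on one another, so these correlations cannot decide if the tumors were paired. Depth limits Fosb most, at 42 to 154 counts per library.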
